A study of Homo sapiens with 2 samples.

Results

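The mitosis and spindle genes are a list of 44 genes chosen by name: the cyclins, kinases and phosphatases that drive entry into mitosis, the spindle checkpoint and anaphase machinery, kinetochore proteins, kinesins, and spindle and cytokinesis factors. Each of the 44 symbols matched 1 of the 61541 genes in the deposited table, and all 44 had reads in both libraries. The RNA came from Huh7, an established human hepatocellular carcinoma cell line, sequenced once after a control siRNA (Huh7-NC) and once after an siRNA against BRF2 (Huh7-si). BRF2 is an RNA polymerase III transcription factor, and the series was made to profile how its knockdown affected mRNA levels. The labels give no further agent, allele or time point and do not say which siRNA against BRF2 was used. Each condition is 1 library of cultured cells, so no difference has a replicate check. Counting error is therefore the only error that can be given. It does not contain the variation between cultures, and PCR copies make even this error a lower limit.

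Mitosis divides the copied chromosomes between daughter cells. Cyclin B with the kinase CDK1 starts it, kinesins and other microtubule proteins build the spindle, and kinetochores tie each chromosome to spindle fibers. The spindle checkpoint holds the anaphase-promoting complex back until all chromosomes are attached, after which securin and cyclin B are destroyed, separase opens the cohesin rings and the cell divides. Transcripts of most of these genes build up in G2 and M phase, which is why they are widely used as markers of dividing cells, hepatoma cells included. In bulk RNA, fewer cells in G2 and M phase and less of each mRNA per cell cannot be told apart.

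Reads summed to 22852648 for the control (Huh7-NC) and 22089016 for the knockdown (Huh7-si). BRF2 itself had 1281 and 364 reads, respectively, with a log2 fold change of -1.77 of CPM, the count scaled to the library total (95% interval -1.94 to -1.60). The hepatoma markers AFP and ALB were abundant in both libraries (4723 and 5593 CPM for AFP, 5555 and 5155 CPM for ALB). Other hepatoma markers differed between the libraries, with log2 fold changes of -0.83 for APOA1 and 1.04 for APOB. Of the markers outside this lineage, PTPRC had 5 and 1 reads, KRT7 0 and 3, VWF 1 and 3, and ACTA2 2 and 7. The others were not near 0: CD68 had 235 and 244 reads, PECAM1 60 and 63, and COL1A1 76 and 229. Below, a log2 fold change is that of CPM in Huh7-si over Huh7-NC unless TPM is named, with its 95% Clopper-Pearson counting interval in parentheses. TPM is the authors' abundance scaled to transcript length. Where a pair of read numbers is given, Huh7-NC comes first. A gene was called when its CPM differed at least 2-fold with p under 0.05 in an exact binomial test (two-sided). Such a test sets one library against the other and says nothing about spread between cultures.

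In summed CPM and TPM, the mitosis and spindle genes differed little between the libraries, but single members differed in opposite directions. Their CPM summed to 4764 with the control siRNA and 4556 with the BRF2 siRNA, a log2 ratio of -0.06 (-0.08 to -0.05). In TPM the sums were 3669 and 3599.6. Only 1 member was called higher, ASPM, and 0 were called lower, where 10.4% of the 26379 genes with reads were called higher and 1.02% lower. All members had at least 209 reads in each library, so the protein-coding genes with at least 100 reads in a library are a closer background; of those 11095 genes, 5.56% were called higher and 0.225% lower. With the threshold lowered to 1.5-fold, 3 members (ASPM, KIF14 and MKI67) were called higher and 0 lower, against 18.3% and 3.66% of that background. By the counting interval alone, 17 members (38.6%) were higher and 21 (47.7%) were lower, against 46.0% and 28.8% of the background, and 6 were not separated from no change. With TMM scaling (a shift of -0.22 for every gene) the interval gave 9 members higher (20.5%) and 27 lower (61.4%), while the background shares became 28.7% and 46.2%. The median log2 fold change was -0.09 over the members and 0.11 over the background. With TMM scaling, which shifts both, the members' median was -0.31.

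**Figure D1:**
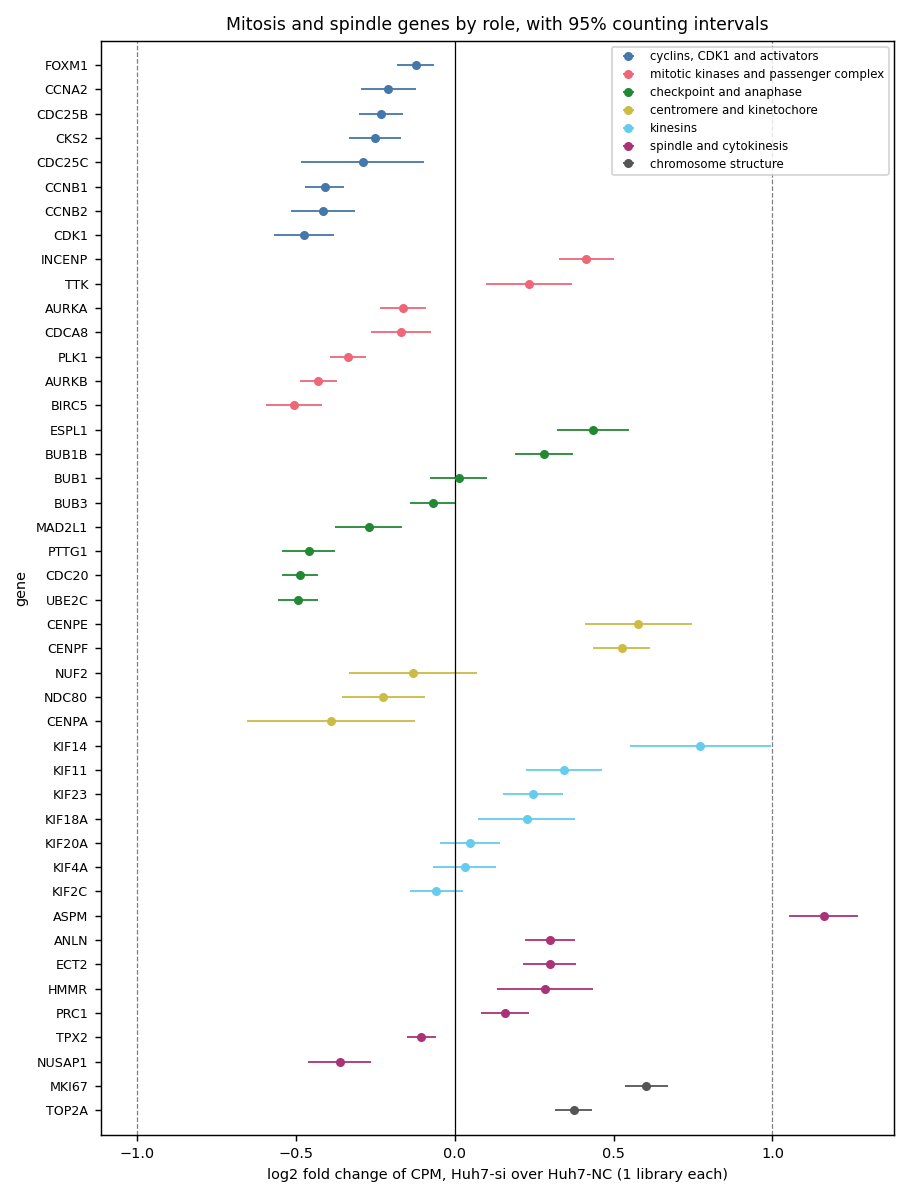
Log2 fold change of CPM (x axis, Huh7-si over Huh7-NC, 1 library each) for the 44 genes (y axis), grouped and colored by role. Bars are 95% counting intervals and dashed lines mark a 2-fold difference; only ASPM lies past a dashed line, and all 8 cyclins, CDK1 and activators lie left of 0 on this scale.

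The promoters show what these genes have in common outside the measurements. Genes of late G2 and M phase often carry a cell cycle genes homology region (CHR), bound by the DREAM and MuvB complexes, and CCAAT boxes, bound by NF-Y. In the RefSeq promoter table (GRCh38.p14, 250 bases before to 50 after each start), 37 of the 44 members had an entry, with 47 promoters in all; TPX2, BUB3, TTK, UBE2C, BIRC5, FOXM1 and AURKA had none. A CHR form (the letters TTTGAA, the variant with TTCGAA or the variant with TTTAAA, read on either strand, so that its reverse TTCAAA counts too) was present in 40 of the 47 promoters (85.1%), against 25.1% of all 35116 promoters in the table. CCAAT (or ATTGG on the other strand) was present in 36 (76.6%) against 34.6%, and both in 32 (68.1%) against 9.70%. A match describes these letters and does not show a bound site. The following 200 bases (150 before and 50 after the start, written along the gene) belong to the 3 highest and the 3 lowest members by log2 fold change that have a single promoter in the table. This leaves out CDK1, PTTG1 and AURKB, which were lower than CCNB2 but have 2 promoters each, and AURKB has no CHR form. The lowest members, BIRC5 and UBE2C, have no entry, so the windows do not stand for the whole low end. Capitals mark the CHR forms and the CCAAT boxes of either strand.
ASPM (chr1:197146620-197146819, minus strand): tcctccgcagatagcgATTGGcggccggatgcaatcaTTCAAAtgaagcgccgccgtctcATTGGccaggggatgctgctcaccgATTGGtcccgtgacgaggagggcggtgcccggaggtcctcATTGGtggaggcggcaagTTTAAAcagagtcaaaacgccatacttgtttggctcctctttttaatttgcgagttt
KIF14 (chr1:200620702-200620901, minus strand): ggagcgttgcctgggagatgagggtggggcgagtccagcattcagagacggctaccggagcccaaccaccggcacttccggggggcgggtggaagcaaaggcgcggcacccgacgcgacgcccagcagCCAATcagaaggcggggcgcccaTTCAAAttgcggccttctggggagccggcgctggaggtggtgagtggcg
MKI67 (chr10:128126374-128126573, minus strand): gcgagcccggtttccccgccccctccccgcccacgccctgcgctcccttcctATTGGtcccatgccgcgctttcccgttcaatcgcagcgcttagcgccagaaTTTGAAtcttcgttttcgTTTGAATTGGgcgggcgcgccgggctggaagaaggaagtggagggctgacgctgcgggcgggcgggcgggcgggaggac
CDC20 (chr1:43358831-43359030, plus strand): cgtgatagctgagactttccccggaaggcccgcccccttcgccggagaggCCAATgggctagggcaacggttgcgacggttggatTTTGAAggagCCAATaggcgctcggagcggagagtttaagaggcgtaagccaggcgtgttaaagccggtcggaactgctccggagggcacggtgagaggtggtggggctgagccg
CCNB2 (chr15:59104996-59105195, plus strand): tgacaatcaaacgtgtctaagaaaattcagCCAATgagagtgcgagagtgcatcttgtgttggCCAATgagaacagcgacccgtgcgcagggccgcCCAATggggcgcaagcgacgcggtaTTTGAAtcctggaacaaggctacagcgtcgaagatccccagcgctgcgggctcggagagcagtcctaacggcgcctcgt
CCNB1 (chr5:69167000-69167199, plus strand): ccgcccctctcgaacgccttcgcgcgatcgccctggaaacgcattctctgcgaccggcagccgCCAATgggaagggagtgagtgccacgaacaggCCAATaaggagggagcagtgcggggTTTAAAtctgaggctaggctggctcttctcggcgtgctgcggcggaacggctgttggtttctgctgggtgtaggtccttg
All 6 windows hold at least 1 CHR form and at least 1 CCAAT box. The ASPM window has 4 CCAAT boxes and the CCNB2 window has 3. In the MKI67 window, the second TTTGAA runs into an ATTGG and shares an A with it. The 35 members with a CHR form ranged from -0.49 to 1.16 in log2 fold change, which is the whole range of the 37, and only AURKB and CCNA2 lacked one. The 31 members with CCAAT had a median of 0.01 and the 6 without it 0.11.

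In Huh7-NC the levels per length spanned from 2.04 TPM for KIF14, a kinesin of cytokinesis, to 499.87 TPM for UBE2C, the ubiquitin-conjugating enzyme of the anaphase-promoting complex. CKS2, the small adaptor that binds CDK1, came next at 367.58 TPM, followed by the kinase AURKB at 328 TPM and securin (PTTG1) at 311.07 TPM. At the low end, above KIF14, stood the kinetochore motor CENPE at 4.27 TPM and ASPM at 8.59 TPM. KIF14 (4 TPM) and CENPE (5.1 TPM) were the lowest in Huh7-si too. ASPM, at 18.94 TPM there, stood above KIF18A (14.11), KIF11 (16.16), NUF2 (14.66), CDC25C (13.89) and CENPA (15.02), all of which were above it in Huh7-NC.

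**Figure D2:**
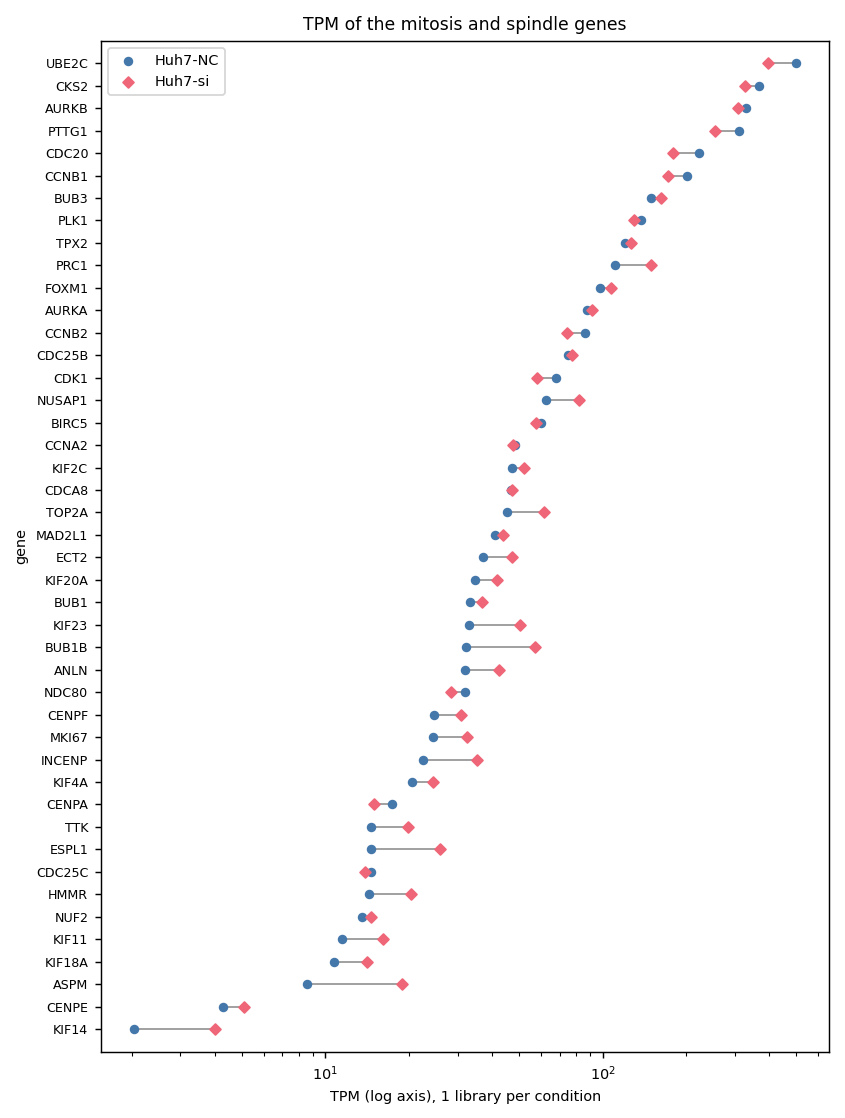
TPM of each of the 44 genes (x axis, log scale) in Huh7-NC (circles) and Huh7-si (diamonds), 1 library per condition, ordered by the Huh7-NC value. Levels run from 2.04 TPM (KIF14) to 499.87 TPM (UBE2C) in Huh7-NC, and the 6 most abundant genes are each lower in Huh7-si.

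All 8 genes of the group that drives entry into mitosis were lower in Huh7-si beyond counting error, where 28.8% of the background was. Their median log2 fold change was -0.27. None reached 1.5-fold, however, and FOXM1 and CDC25B were slightly higher in TPM (0.13 and 0.04). CDK1, the kinase that starts mitosis, had 2172 and 1511 reads, a log2 fold change of -0.47 (-0.57 to -0.38). Its partner cyclin B1 (CCNB1) had 5066 and 3686 reads (-0.41, -0.47 to -0.35), and cyclin B2 (CCNB2) had 1918 and 1392 reads (-0.41, -0.51 to -0.31). The ratio of CDK1 to CCNB1 reads, which no library scaling can alter, was 0.429 and 0.410, a log2 change of -0.06 (-0.18 to 0.05). Cyclin A2 (CCNA2), which acts earlier, differed less than CDK1: it had 2384 and 1994 reads (-0.21), and its ratio to CDK1 was higher by 0.27 (0.14 to 0.40). The phosphatases that activate CDK1 were lower as well. CDC25B had 3657 and 3009 reads (-0.23, -0.30 to -0.16) and CDC25C had 502 and 397 reads (-0.29, -0.48 to -0.10). CKS2 had 2678 and 2175 reads (-0.25), and FOXM1, the transcription factor of many G2 and M phase genes, had 5157 and 4578 reads (-0.12, -0.18 to -0.07), the least difference of the group.

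The kinases and the chromosomal passenger complex were divided. Of these 7 genes 5 (71.4%) were lower and 2 (28.6%) were higher (1 with TMM scaling), against 28.8% and 46.0% of the background. The median was -0.17. PLK1, the polo-like kinase of spindle assembly, had 5678 and 4346 reads (-0.34, -0.39 to -0.28), and AURKA, the Aurora kinase of the spindle poles, had 3271 and 2824 reads (-0.16, -0.24 to -0.09; 0.06 in TPM). TTK, the checkpoint kinase also called MPS1, was higher, with 847 and 962 reads (0.23, 0.10 to 0.37).
The passenger complex consists of the kinase AURKB, its scaffold INCENP, survivin (BIRC5) and borealin (CDCA8), and corrects faulty attachments at the centromere. AURKB had 5800 and 4164 reads (-0.43, -0.49 to -0.37), survivin had 2529 and 1721 reads (-0.51, -0.60 to -0.42), the lowest log2 fold change of the 44, and borealin had 1925 and 1655 reads (-0.17, -0.26 to -0.07; 0.01 in TPM). INCENP, by contrast, had 1945 and 2505 reads (0.41, 0.33 to 0.50). The scaffold was therefore more abundant in relation to each partner: its read ratio was higher in Huh7-si by 0.92 on the log2 scale to BIRC5 (0.80 to 1.04), by 0.84 to AURKB (0.74 to 0.95) and by 0.58 to CDCA8 (0.45 to 0.71).

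Among the 8 checkpoint and anaphase genes, 4 were lower, 2 were higher and 2 were not separated from no change. The shares were 50% lower and 25% higher, against 28.8% and 46.0% of the background. With TMM scaling 6 were lower and 1 was higher. The 3 most abundant genes of the group, by TPM, were among the lower ones. UBE2C had 5102 and 3501 reads (-0.49, -0.56 to -0.43), and CDC20, the activator of the anaphase-promoting complex, had 6114 and 4219 reads (-0.49, -0.54 to -0.43). Securin (PTTG1), which holds separase inactive until anaphase, had 2889 and 2030 reads (-0.46, -0.54 to -0.38). Separase itself (ESPL1), the protease that cuts cohesin, had 1131 and 1477 reads (0.43, 0.32 to 0.55). The ratio of separase to securin reads was thus 0.391 in the control and 0.728 after knockdown, a log2 change of 0.89 (0.75 to 1.03).
The mitotic checkpoint complex, which blocks CDC20, was also uneven. BUB1B (BUBR1) had 1781 and 2092 reads (0.28, 0.19 to 0.37) and MAD2L1 had 1618 and 1296 reads (-0.27, -0.38 to -0.16; 0.09 in TPM). BUB3 had 3316 and 3054 reads (-0.07, -0.14 to 0.00). The checkpoint kinase BUB1, which is not a part of this complex, had 2048 and 1997 reads (0.01, -0.08 to 0.10). Neither BUB3 nor BUB1 differed beyond counting error. In relation to CDC20, BUB1B was higher by 0.77 (0.66 to 0.88).

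**Figure D3:**
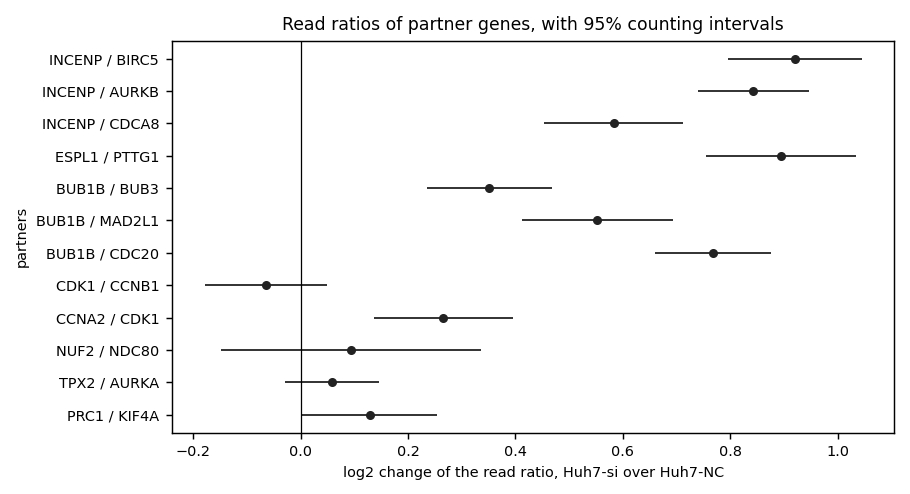
Log2 change of the read ratio of partner genes (x axis, Huh7-si over Huh7-NC), with 95% counting intervals as bars and one pair per line. The INCENP, ESPL1 and BUB1B pairs lie right of 0, while the intervals of CDK1 to CCNB1, NUF2 to NDC80 and TPX2 to AURKA include 0.

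The centromere and kinetochore genes comprised 2 that were higher, 2 that were lower and NUF2, which joined the lower ones with TMM scaling. By total reads the shares were 40% higher and 40% lower, against 46.0% and 28.8% of the background. CENPE, the motor that moves chromosomes to the spindle equator, had 493 and 711 reads (0.58, 0.41 to 0.75). CENPF, a large protein of the outer kinetochore, had 1710 and 2378 reads (0.52, 0.43 to 0.62). CENPA, the histone H3 variant that marks centromeres, had 283 and 209 reads (-0.39, -0.65 to -0.13), the fewest reads of any member in Huh7-si. NDC80 and NUF2 form the rod that grips microtubules. NDC80 had 1047 and 866 reads (-0.22, -0.36 to -0.09) and NUF2 had 433 and 382 reads (-0.13, -0.33 to 0.07), and their ratio differed by 0.09 (-0.15 to 0.33).

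The split of the 7 kinesins depended on the scaling. By total reads 4 (57.1%) were higher, against 46.0% of the background, 3 were not separated from no change and 0 were lower. Their median was 0.23. With TMM scaling 2 (28.6%) were higher and 3 (42.9%) lower, against 28.7% and 46.2% of the background. KIF14 had 272 and 449 reads (0.77, 0.55 to 0.99). KIF11 (Eg5), which pushes the spindle poles apart, had 1051 and 1289 reads (0.34, 0.22 to 0.46), and KIF23, part of centralspindlin, had 1717 and 1967 reads (0.25, 0.15 to 0.34). KIF18A, which dampens chromosome movements, had 660 and 746 reads (0.23, 0.07 to 0.38). KIF20A (0.05), KIF4A (0.03) and the depolymerase KIF2C (-0.06) lay near 0, and these were the 3 that were lower with TMM scaling (-0.18, -0.19 and -0.28).

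The spindle and cytokinesis group held the one called member. ASPM, which focuses spindle poles and is mutated in primary microcephaly, lies on chromosome 1 (GRCh38 positions 197084128 to 197146694, minus strand). It had 1009 and 2181 reads, or 44.2 and 98.7 CPM, with a log2 fold change of 1.16 (1.05 to 1.27; exact binomial p = 1.19e-106 between the libraries). In TPM it went from 8.59 to 18.94, a log2 difference of 1.14, whereas with TMM scaling its log2 fold change was 0.94, short of the 2-fold threshold. Of the other 6 genes, 4 were higher and 2 lower. Of all 7, 71.4% were higher and 28.6% lower, against 46.0% and 28.8% of the background. With TMM scaling ASPM was the only one of the 7 higher beyond counting error. ANLN, which scaffolds the contractile ring, had 2359 and 2808 reads (0.30, 0.22 to 0.38), and ECT2, which activates RhoA at the division plane, had 2143 and 2547 reads (0.30, 0.21 to 0.38). HMMR, a spindle-pole and hyaluronan-binding protein, had 656 and 772 reads (0.28, 0.13 to 0.44). PRC1, which bundles midzone microtubules, had 2729 and 2945 reads (0.16, 0.08 to 0.23; -0.07 with TMM scaling). TPX2, which activates AURKA on the spindle, had 7755 and 6970 reads (-0.10, -0.15 to -0.06), and its ratio to AURKA differed by 0.06 (-0.03 to 0.15). NUSAP1, a spindle-stabilizing protein, had 1960 and 1474 reads (-0.36, -0.46 to -0.26), but was higher in TPM (0.40), as was TPX2 (0.07).
The remaining 2 genes, both high in cycling cells, were higher. MKI67 (Ki-67), which coats mitotic chromosomes, had 3039 and 4462 reads (0.60, 0.54 to 0.67), and TOP2A, the topoisomerase that untangles sister chromatids, had 4132 and 5175 reads (0.37, 0.31 to 0.43). The standard proliferation markers therefore did not share a direction in CPM: Ki-67 and TOP2A were higher, while cyclin B1, PLK1 and survivin were lower. They did not share one in TPM either, with MKI67 at 0.41 and TOP2A at 0.45. Relative to genes of like length, described next, all 5 were below 0 (MKI67 -0.11, TOP2A -0.04, CCNB1 -0.37, PLK1 -0.32 and BIRC5 -0.59), but relative to genes of like reads per TPM, a second measure of length, MKI67 was above 0 (0.10).

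The direction of a member in CPM went with the length of the gene. Across the 44 genes, which come from the same pair of libraries and are not replicates, deposited length and log2 fold change had a Spearman's rho of 0.85, and 0.83 without the 2 longest. The other 11051 genes of the background showed the same tendency, with a rho of 0.57. Of the 15 shortest members (616 to 2263 bases), 14 were lower beyond counting error and 0 were higher, with a median of -0.39. By sign alone, 0 of the 15 were above 0, against 30.6% of other genes of these lengths, which had a median of -0.20. Among the middle 14, 6 were higher and 6 lower. Of the 15 longest (3762 to 12716 bases), 11 were higher beyond counting error and 1 was lower, with a median of 0.37. By sign alone, 13 of the 15 were above 0, against 84.4% of other genes of these lengths, which had a median of 0.39. The short group holds CKS2, UBE2C, PTTG1, AURKB, CENPA, CCNB2, CDC20 and CDK1, and the long group ASPM, KIF14, MKI67, CENPE, CENPF and ESPL1, so role and length cannot be told apart in the CPM values of the groups above.

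**Figure D4:**
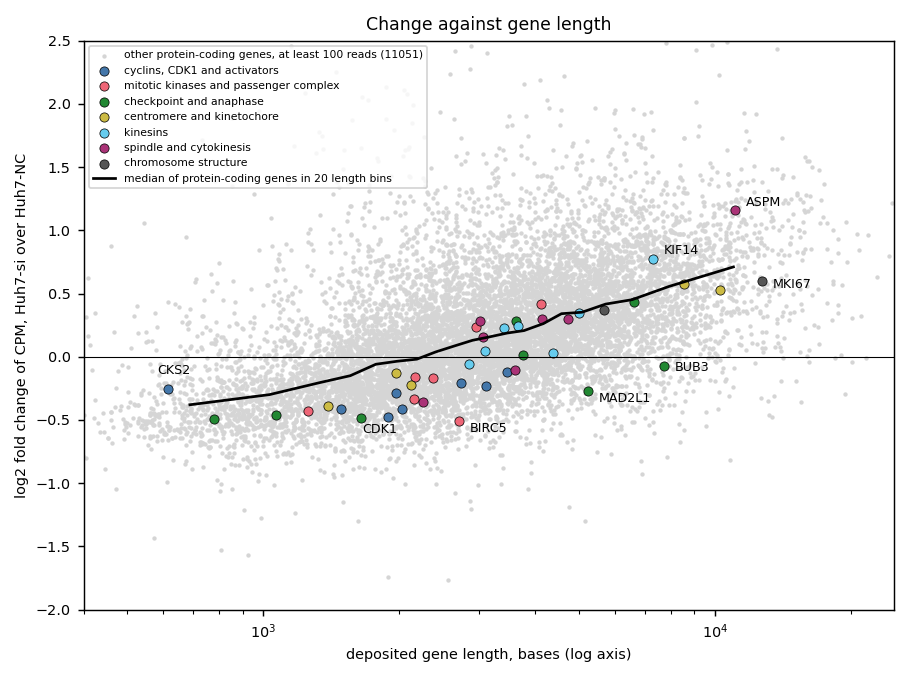
Log2 fold change of CPM (y axis) against deposited gene length in bases (x axis, log scale) for the 44 genes (colored by role), the other protein-coding genes with at least 100 reads (gray; those outside the axes are not drawn) and the median of 20 length bins (line). Most of the colored points follow the line's slope but lie below it; ASPM and KIF14 lie above it and BUB3, MAD2L1 and BIRC5 far below it.

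Relative to genes of like length, 32 of the 44 members were lower and 12 higher, where 53.6% of the background was lower. The median of this difference was -0.17 over the members and -0.03 over the background. The standard deviation over the members was 0.39 for the log2 fold change and 0.23 for the difference from genes of like length. ASPM was the highest also on this measure, at 0.45, followed by KIF14 (0.22), HMMR (0.16), INCENP (0.15) and CKS2 (0.13), the last of which was lower in CPM but above other genes as short as it is. MKI67 turned from 0.60 to -0.11. At the other end were BUB3 (-0.63), MAD2L1 (-0.62), BIRC5 (-0.59), CDK1 (-0.44) and CDC25B (-0.39). By role, 7 of the 8 cyclins, CDK1 and activators lay below genes of like length, with a median of -0.30, as did 7 of the 8 checkpoint and anaphase genes (median -0.18), while the kinesins (median -0.01) and the spindle and cytokinesis genes (median 0.00) went both ways. The kinesins ran from 0.22 for KIF14 to -0.31 for KIF4A, and the spindle and cytokinesis genes from 0.45 for ASPM to -0.34 for NUSAP1.
Among partners, the separase to securin difference was 0.14 after subtraction of genes of like length, against 0.89 before it and 1.11 in TPM. For INCENP the difference was 0.74 to BIRC5, 0.38 to AURKB and 0.36 to CDCA8 after that subtraction, and 0.70, 0.74 and 0.64 in TPM. For BUB1B to CDC20 the difference was 0.41 after it, against 0.77 before it and 1.13 in TPM.

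The deposited length did not always match the reads behind each TPM unit, a ratio that grows with the transcript length by which TPM is scaled. BUB3 has a deposited length of 7703 bases but 22.1 reads per TPM in Huh7-NC, against 133 for KIF14 with 7291 bases. MAD2L1 has 5227 bases and 39.5 reads per TPM, against 91.8 for KIF11 with 5016 bases. Compared instead with genes of like reads per TPM, BUB3 lay at 0.09 and MAD2L1 at -0.32, whereas BIRC5 was at -0.60, CDK1 at -0.48 and ASPM at 0.65. The sign differed between these references for 5 members: BUB3, CENPF (-0.19 by length, 0.21 by reads per TPM), MKI67 (-0.11 and 0.10), ESPL1 (-0.02 and 0.07) and KIF18A (0.03 and -0.06). BUB3 and ESPL1 are checkpoint and anaphase genes, so the count given above for that group holds only by deposited length.
By TPM, 30 members were higher and 14 lower, with a median of 0.14, where the background had a median of 0.31. The 10 members lower in CPM but higher in TPM were CDC25B, AURKA, BUB3, MAD2L1, CDCA8, NUF2, KIF2C, TPX2, NUSAP1 and FOXM1. The log2 change of reads per TPM, relative to the median gene, was -0.58 for NUSAP1 and -0.36 for BUB1B, the only members at -0.3 or less, where 5.48% of the background was; it was 0.51 for CENPE, 0.39 for CENPF and 0.38 for MKI67. NUSAP1 had -0.36 in CPM and 0.40 in TPM, and its reads may be shared with an overlapping gene on the same strand, ENSG00000285920, which had 1794 and 1800 reads. All cyclin and CDK1 genes kept their lower sign in TPM (CDK1 -0.23, CCNB1 -0.23, CCNB2 -0.20 and CCNA2 -0.03), as did CDC20 (-0.31), UBE2C (-0.34), PTTG1 (-0.29), AURKB (-0.09), PLK1 (-0.09) and BIRC5 (-0.06).

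**Figure D5:**
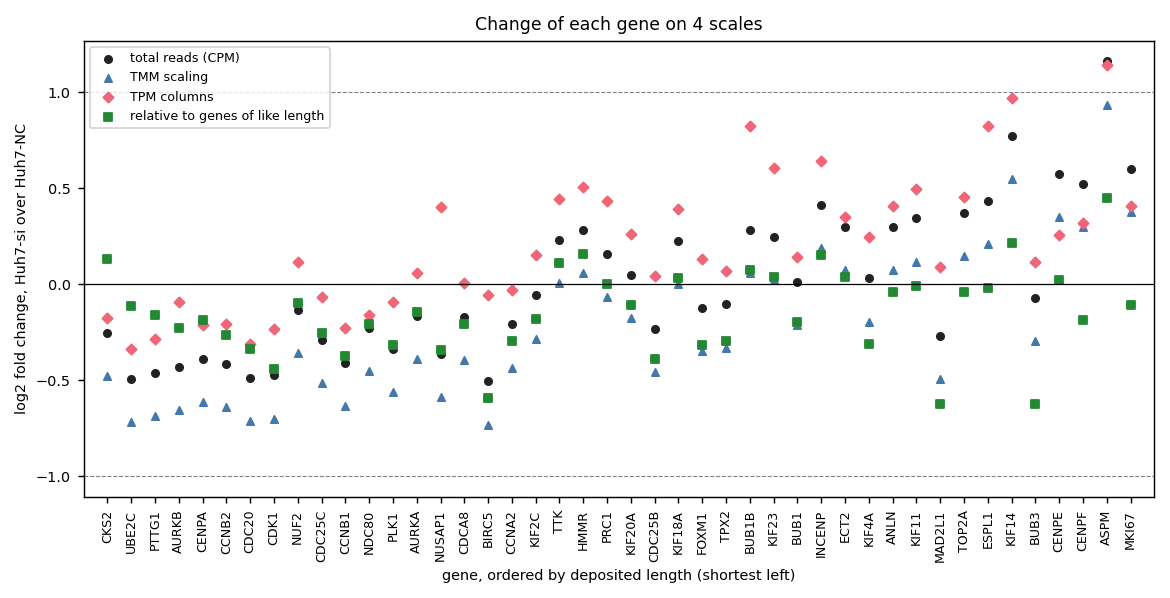
Log2 fold change (y axis, Huh7-si over Huh7-NC) of each of the 44 genes, ordered from the shortest to the longest (x axis), by total reads (CPM), with TMM scaling, in the TPM columns and relative to genes of like length. ASPM is above 0 on all 4 scales, at 1.16, 0.94, 1.14 and 0.45, and CDK1 is below 0 on all 4.

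Near copies of the members took few reads, apart from genes that are expressed in their own right. KIF4B had 10.1 and 7.08 reads beside 1675 and 1654 for KIF4A, and PTTG2, PTTG3P and CCNA1 had 0 reads in both libraries, which allows up to 3 reads each. Of 16 pseudogenes and antisense genes named after members, 11 had no reads, and the most in one library was 21.95 (PRC1-AS1). CKS1B, the close relative of CKS2, had 6732 and 4368 reads (-0.58, -0.63 to -0.52), and TOP2B had 3750 and 4491 reads (0.31, 0.25 to 0.37), each on the side of its relative. Deposited lengths are 779 bases for CKS1B and 616 for CKS2, and 5814 for TOP2B and 5695 for TOP2A. The shared sides therefore cannot be told apart from length. CDC25A had 2333 and 2004 reads (-0.17), lower like CDC25B and CDC25C. CCNB3 had 433 and 493 reads (0.24, 0.05 to 0.43) and was higher by total reads, unlike CCNB1 and CCNB2. Its deposited length is 4697 bases, against 2029 for CCNB1 and 1488 for CCNB2, so this contrast cannot be told apart from length. TMM scaling shifts each of these values by -0.22.
Reads could be shared where genes overlap, since the strandedness of the libraries is not given. For 10 members an overlapping gene had at least 10% as many reads. The largest shares were 462% of the reads of CDC25C for FAM53C (log2 fold change 0.44) and 309% of those of CENPA for SLC35F6 (0.14). CENPA and PRC1 overlap an expressed gene on the same strand, as NUSAP1 does; CCNA2, CDC25C, FOXM1, KIF18A, KIF20A, KIF4A and NUF2 overlap one on the opposite strand, and their values are uncertain to that extent.

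The wider mitotic machinery was examined in 127 further genes, all with reads. Of these 2 were called higher and 1 lower, where 5.56% and 0.225% of the background was. By the counting interval 53 (41.7%) were higher and 47 (37.0%) lower, against 46.0% and 28.8% of the background, with a median log2 fold change of 0.04. PCNT, the pericentrin scaffold of centrosomes, had 783 and 1758 reads (1.22, 1.09 to 1.34). CLIP1, which binds growing microtubule ends, had 984 and 1948 reads (1.03, 0.92 to 1.15). ANAPC15, the subunit of the anaphase-promoting complex that helps to release the checkpoint, had 565 and 190 reads (-1.52, -1.77 to -1.28). By the same interval, condensin and cohesin genes were mostly higher (14 of 19, 3 lower), as were more of the spindle and centrosome genes (20 of 36, 8 lower). Lower members prevailed among the kinetochore genes (17 of 33, 10 higher), the anaphase-promoting complex (10 of 17, 5 higher) and the genes of mitotic entry and exit (9 of 22, 4 higher). Lengths differ between these lists. The condensin and cohesin genes, with a median length of 5992 bases, lay below genes of like length in 16 of 19 cases (median -0.17), and the spindle and centrosome genes in 19 of 36 (median -0.02). Also below genes of like length were 21 of 33 kinetochore genes (median -0.15), 10 of 17 of the anaphase-promoting complex (-0.06) and 14 of 22 of mitotic entry and exit (-0.15). Relative to genes of like length, 80 of the 127 were lower, with a median of -0.10, beside -0.17 for the 44 mitosis and spindle genes. Of the background, 53.6% was lower on this measure, with a median of -0.03.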

How the data were processed

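Huh7 cells were profiled by RNA-seq of total RNA after transfection with a control siRNA or an siRNA against BRF2, 1 library each, mapped by their titles. The authors deposited 1 table of 61541 genes with, for each library, an estimated count of reads per gene, which is partly fractional and not scaled to depth, and a TPM value. It also holds the authors' fold change, p-value and related columns of their own comparison, which were not used. The submitters' processing notes list Bowtie2 2.0.6, TopHat2 2.0.12 and GRCh37 with no role; the counting tool, the annotation and the strandedness are not given in the sources used here. GENCODE release 29 holds 94.8% of the identifiers, and gene types, positions and overlaps (GRCh38) were taken from it.

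Estimated counts were rounded for tests on reads. CPM was computed from the totals of 22852648 and 22089016 reads. Every gene with reads (26379) was tested by a two-sided exact binomial test, and intervals are exact 95% Clopper-Pearson intervals of the read share, which cover counting error only. Ratios of partner genes are conditional odds ratios with exact intervals. Genes of like length were the 13827 protein-coding genes with a symbol and at least 10 reads, in 20 bins of deposited length. Tests ran in SciPy 1.17.1 under Python 3.11.15, tables were handled in pandas 2.3.3 and NumPy 2.4.6, and figures were drawn with matplotlib 3.10.9. R 4.3.3 with edgeR 4.0.16 (TMM and upper-quartile scaling, and a test with an assumed dispersion) and DESeq2 1.42.0 (median-of-ratios scaling) served only for alternatives. In counts simulated for the comparison of Huh7-si with Huh7-NC over 26379 genes, the test recovered 200 of 200 genes changed 4-fold and called 0 of 12806 unchanged genes with at least 50 expected reads. The simulated counts held counting error only, and their changes were larger than that of any member. They therefore check the computation and give no rate of false calls between cultures.

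The 44 genes, the other mitotic genes and the tests were chosen with earlier results of these data known. Full values were planned for called members, the 8 highest and 8 lowest by log2 fold change and the 5 highest and 5 lowest relative to genes of like length; the other members were added in their groups. The partner pairs, the background of genes with at least 100 reads and the comparison with genes of like reads per TPM were chosen after values were seen. Motifs and sequences came from RefSeq promoters.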

Additional observations from a re-analysis of the deposited data

How the results depend on the processing

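No paired analysis was possible because each condition has 1 library, and for the same reason no library could be left out. TMM, median-of-ratios and upper-quartile scaling shifted every log2 fold change by -0.22, -0.21 and -0.19. Under each of these 3 the members called higher went from 1 to 0, with ASPM at 0.94, 0.95 and 0.97. Over all 26379 genes with reads, those called higher went from 2742 to 1822, 1873 and 1930. The members' median was -0.31, -0.29 and -0.27. It was 0.14 in TPM. The count of members called higher was also 0 relative to genes of like length (ASPM 0.45) and relative to genes of like reads per TPM (added after seeing the data). It was 0 in an edgeR test that assumed a coefficient of variation of 0.4 between cultures, and 3 at a 1.5-fold threshold. No member was called lower under any alternative run, where the TPM run went by fold alone without a test. By the interval, the members higher were 9 with TMM, 11 with median-of-ratios scaling and 4 against genes of like length.

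Under TMM, median-of-ratios and upper-quartile scaling in turn, 4 members changed sign: BUB1 (-0.21, -0.19 and -0.17), KIF20A (-0.18, -0.16 and -0.14), KIF4A (-0.19, -0.18 and -0.16) and PRC1 (-0.0659, -0.0482 and -0.0276). In TPM the sign changed for CDC25B (0.0442), AURKA (0.0578), BUB3 (0.12), MAD2L1 (0.0908), CDCA8 (0.00677), NUF2 (0.11), KIF2C (0.15), TPX2 (0.0720), NUSAP1 (0.40) and FOXM1 (0.13). Relative to genes of like length it changed for BUB1 (-0.19), CENPF (-0.19), KIF11 (-0.0106), KIF20A (-0.11), KIF4A (-0.31), ANLN (-0.0414), TOP2A (-0.0406), MKI67 (-0.11), ESPL1 (-0.0176) and CKS2 (0.13).

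The other mitotic genes called higher went from 2 to 0 (TMM), 1 (median of ratios) and 1 (upper quartile). They were 0 relative to genes of like length, 0 with the assumed variation of 0.4 and 16 at 1.5-fold. In TPM 8 were at least 2-fold higher, by fold alone without a test, as were 8648 of the 26379 genes with reads. Over all these genes, those called higher were 2284 relative to genes of like length, 687 with the assumed variation and 4634 at 1.5-fold. Other mitotic genes called lower went from 1 to 3 under each of the 3 scalings. They were 2 relative to genes of like length, 0 with the assumed variation and 7 at 1.5-fold. Over all genes with reads, those called lower went from 270 to 572, 542 and 454 under the 3 scalings. They were 286 relative to genes of like length, 76 with the assumed variation and 756 at 1.5-fold. The median of the other mitotic genes under the 3 scalings was -0.19, -0.17 and -0.15, in that order. It was -0.10 relative to genes of like length and 0.22 in TPM. The cause of these changes was not tested.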

Other observations

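Outside the 44 mitosis and spindle genes, several genes of the same processes differed more than most of them; the ones given were picked with their values in view. Among kinetochore genes, CENPT, which ties the centromere to the outer kinetochore, had 1488 and 2821 reads in the control and knockdown libraries, a log2 difference of 0.97 (0.88 to 1.06) and 0.89 above genes of like length. TRIP13, an ATPase that helps to take the mitotic checkpoint complex apart, and CENPM, a protein of the inner kinetochore, lay at -0.88 and -0.85. MYBL2, the B-Myb factor that acts with MuvB at CHR promoters, had 8120 and 5421 reads (-0.53), beside -0.12 for FOXM1, its partner in G2 transcription.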
